A study of Aspergillus niger with 4 samples.

Results

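The genes described here are those of Aspergillus niger, a filamentous fungus, that had more RNA without the transcription factor gene hapX and whose identifiers carry consecutive numbers. A gene counted as a riser when its mean level in the delta-hapX strain, in counts scaled to the same library total (CPM), was at least 5, when the ratio (mean delta-hapX CPM + 0.5)/(mean reference CPM + 0.5) was at least 2, and when both delta-hapX libraries lay above both reference libraries. Of 10898 genes with reads in at least 1 library, 334 were risers. The 83 risers that followed each other in runs of at least 2 consecutive numbers are the members, which is 24.9% of the risers and 0.762% of all these genes. The members were thus chosen by their levels in the same 4 libraries, so the levels and ratios below describe them and carry no test.

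The mutant carries cspA1, pyrG- and kusA::amdS together with delta-hapX::hph, a replacement of hapX by a hygromycin resistance gene. The reference strain, N593 delta-kusA, carries cspA1, pyrG- and kusA::amdS, so both strains lack kusA, needed for end joining of broken DNA, and pyrG, needed for uridine synthesis. Each strain is represented by 2 libraries of mycelium, named a and b. Both strains had grown for 16 h in complete medium with 2% fructose and were then kept for 2 h in 50 ml of minimal medium of pH 6 with 25 mM maltose. No label tells whether libraries a and b were grown as separate cultures, or how many transformants stand behind delta-hapX. Any p-value given below therefore measures spread between libraries that may be purely technical.

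HapX is a bZIP protein that acts together with the CCAAT-binding complex, a DNA-binding complex of filamentous fungi. In other Aspergillus species it is known to repress genes of iron-consuming pathways when iron is scarce and to favour iron uptake. Genes of one pathway often lie side by side in fungal genomes, above all those for secondary metabolites and for the use of particular nutrients. The identifiers (NRRL3_ and a 5-digit number) are the only names that the tables give, and 0 of them matched the RefSeq gene table of assembly ASM285v2, so no member could be given a name or a function. No source used here states that consecutive numbers mean neighbours on a chromosome, so runs are runs of numbers. For the same reason the level of hapX, the defining genes of mycelium and the genes of iron metabolism could not be looked up, and no sequence of a member is printed.

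The libraries held 3505555 to 4264311 estimated reads, and 83 of the 83 members had reads in all 4. A count of 3, taken as the lower limit of detection, corresponded to 0.704 to 0.856 CPM. Between replicates the chi-square per gene, which is near 1 where only sampling noise separates 2 libraries, was 3.79 in delta-hapX and 6.56 in the reference. Expected counts of the members were whole numbers in every library, with 0 members holding a fraction of a read. Mycelium was measured in bulk, so more RNA per cell and more cells that make it cannot be told apart.

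The members fell into 38 runs, of which 34 had 2 genes, 3 had 3 genes and 1 had 6 genes. Risers made up 3.06% of all genes with reads, which include genes under the limit of 5 CPM. Of the 321 risers whose next number also had reads, 45 were followed by a riser. These 45 pairs are the neighbouring pairs within the runs, so their number only describes the runs. Whether risers followed each other more often than by chance was not tested. Within the members the ratio ranged from 2.02 to 33.0 with a median of 2.83. It was under 3 in 47 members, from 3 to under 5 in 16, from 5 to under 10 in 9 and 10 or more in 11. Most members were thus 2 to 3 times as high in delta-hapX, and a minority of runs held a gene with a far larger ratio, as the plot of ratios by run shows.

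**Figure D1:**
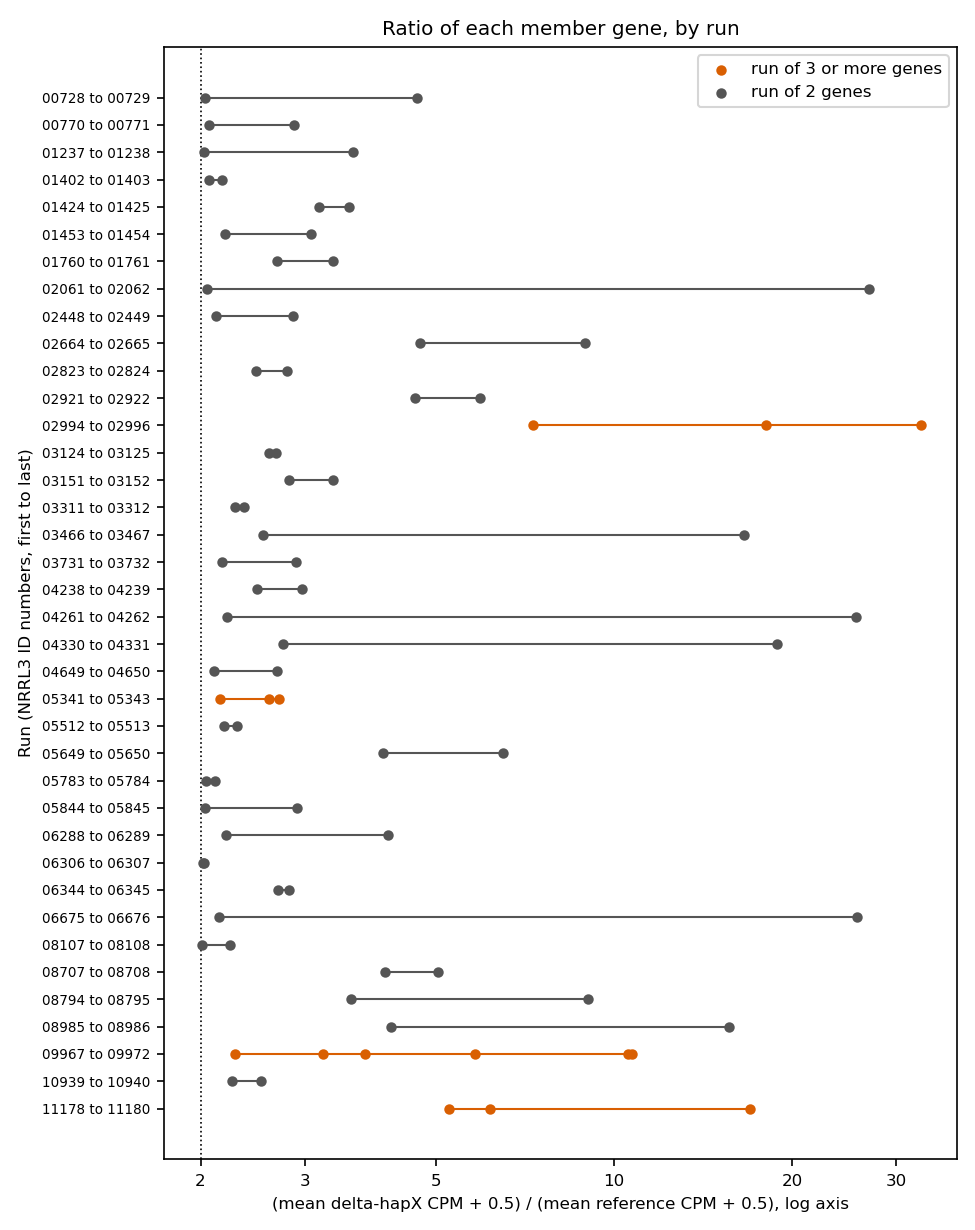
Ratio of delta-hapX over reference for each of the 83 members, with 1 row per run of consecutive identifier numbers and a logarithmic horizontal axis. Points are genes, the line joins the lowest and the highest of a run, orange marks runs of 3 or more genes, and the dotted line is the limit of 2; the values range from 2.02 to 33.0.

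Levels covered a wide range. The mean delta-hapX level was between 5 and 10 CPM in 15 members, from 10 to under 100 in 47, from 100 to under 1000 in 14 and 1000 or more in 7. All members together held 6.02% and 5.45% of the reads of delta-hapX libraries a and b, against 2.15% and 2.12% of reference libraries a and b. The largest single contribution was that of NRRL3_08108, at 3.32% and 2.84% in delta-hapX and 1.37% and 1.37% in the reference. Coding lengths ran from 279 bases in NRRL3_04330 to 5766 in NRRL3_02922, with a median of 1239, against 1300.5 over all genes with reads.

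The longest run comprised the 6 genes NRRL3_09967 to NRRL3_09972. NRRL3_09967 (1212 bases) had 543 and 487 CPM in delta-hapX libraries a and b, against 45.3 and 49.7 CPM in reference libraries a and b, a ratio of 10.7. The next gene, NRRL3_09968 (792 bases), had 88.3 and 77.0 CPM in delta-hapX, against 7.04 and 7.72 CPM in the reference, a ratio of 10.6. These neighbours thus had nearly equal ratios although their levels differed, at 425 ± 32.4 FPKM in delta-hapX and 39.1 ± 2.60 FPKM in the reference for NRRL3_09967 and 106 ± 10.2 FPKM in delta-hapX and 9.45 ± 0.629 FPKM in the reference for NRRL3_09968 (means ± SD, n = 2 each; FPKM, the authors' value per coding length and library size, allows levels of genes to be compared). NRRL3_09969 (1377 bases) reached 159.6 and 117 CPM in delta-hapX, against 41.0 and 31.1 CPM in the reference, a ratio of 3.80, with library a the higher one in both strains. NRRL3_09970 (1296 bases) stood at 185 and 162 CPM in delta-hapX, against 57.0 and 50.2 CPM in the reference, a ratio of 3.22. Ratios in the middle of the run were thus smaller than in its first pair of genes. NRRL3_09971 (687 bases) was the least abundant, with 25 and 24 reads in delta-hapX, against 6 and 16 reads in the reference, or 6.68 and 2.63 CPM on average, a ratio of 2.29. NRRL3_09972 (2412 bases), the last of the run, had 63.8 and 75.0 CPM in delta-hapX, against 14.1 and 8.93 CPM in the reference, a ratio of 5.83.

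In all 6 genes of this run the lower delta-hapX library lay above the higher reference library, as the rule requires. For NRRL3_09971 the size depended on a single library: the log2 fold change fitted by edgeR was 1.35 with all libraries, 0.78 when reference library a was left out and 2.25 when reference library b was, and the adjusted p passed 0.05 neither without reference library a nor without either delta-hapX library, nor by DESeq2 or limma. Outside the run, NRRL3_09966 had 63.5 and 68.2 CPM in delta-hapX, against 59.6 and 56.7 CPM in the reference, a ratio of 1.13. On the other side NRRL3_09973 was lower in delta-hapX, with 64.8 and 69.9 CPM in delta-hapX, against 95.7 and 139 CPM in the reference, a ratio of 0.575. The gene below the run was thus slightly higher in delta-hapX without being called, and the gene above it was called lower.

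The run NRRL3_11178 to NRRL3_11180 held 3 genes with ratios above 5. NRRL3_11178 (2604 bases) had 1605 and 1497 CPM in delta-hapX libraries a and b, against 314 and 275 CPM in reference libraries a and b, a ratio of 5.25. NRRL3_11179 (3294 bases) had 5595 and 5524 CPM in delta-hapX, against 991 and 810.1 CPM in the reference, a ratio of 6.17. The less abundant NRRL3_11180 (1515 bases) had 190.4 and 197 CPM in delta-hapX, against 12.4 and 9.41 CPM in the reference, a ratio of 17.0. Per length, NRRL3_11179 stood highest in both strains, with 1655 ± 15.2 FPKM in delta-hapX and 267 ± 38.0 FPKM in the reference (mean ± SD, n = 2 each), whereas NRRL3_11180 stood lowest in both, with 127 ± 3.10 FPKM in delta-hapX and 7.14 ± 1.39 FPKM in the reference. The gene of the run with the lowest level in the reference was thus the one with the largest ratio. Just below the run, NRRL3_11177 was lower in delta-hapX, with 8.07 and 7.42 CPM in delta-hapX, against 14.1 and 23.7 CPM in the reference, and just above it NRRL3_11181 had 3 and 3 reads in delta-hapX, against 0 and 5 reads in the reference.

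The run NRRL3_02994 to NRRL3_02996 held 2 genes that were near the limit of detection in the reference, NRRL3_02994 and NRRL3_02996, with NRRL3_02995 above it between them. NRRL3_02994 (612 bases) had 44 and 50 reads in delta-hapX, against 1 and 1 reads in the reference; its summed counts per library size gave a ratio of 54.5 (95% counting interval 14.7 to 456) and a ratio by the rule, which adds 0.5 CPM, of 18.1. NRRL3_02995 (1281 bases) had 136 and 123 reads in delta-hapX, against 21 and 16 reads in the reference, a ratio of summed counts of 8.11 (95% counting interval 5.73 to 11.8) and a ratio by the rule of 7.31. NRRL3_02996 (1305 bases) had 156 and 164 reads in delta-hapX, against 2 and 5 reads in the reference, a ratio of summed counts of 53.0 (95% counting interval 25.4 to 133) and a ratio by the rule of 33.0. Despite different reference levels the 3 genes reached similar levels per length in delta-hapX, at 21.6 ± 3.34, 27.5 ± 0.191 and 33.4 ± 3.32 FPKM in the order of their numbers (mean ± SD, n = 2 each). In the reference they stood at 0.400 ± 0.0141, 3.42 ± 0.587 and 0.640 ± 0.396 FPKM. The counting intervals cover counting error only. For NRRL3_02996 the log2 fold change by edgeR was 5.68, and 6.47 when reference library b was left out. The neighbours NRRL3_02993 and NRRL3_02997 had ratios of 0.811 and 1.92, and NRRL3_02997 had 13 and 17 reads in delta-hapX, against 7 and 9 reads in the reference.

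In the run NRRL3_05341 to NRRL3_05343 the ratios lay close together while the levels did not. NRRL3_05341 (972 bases) had 325 and 347 CPM in delta-hapX libraries a and b, against 129 and 128 CPM in reference libraries a and b, a ratio of 2.61. NRRL3_05342 (900 bases) had 21.6 and 19.97 CPM in delta-hapX, against 11.5 and 7.24 CPM in the reference, a ratio of 2.16. NRRL3_05343 (1287 bases) had 57.3 and 77.3 CPM in delta-hapX, against 25.3 and 23.7 CPM in the reference, a ratio of 2.71. Per length, NRRL3_05341 stood at 348 FPKM in delta-hapX and NRRL3_05342 at 23.3 FPKM. The reference libraries of NRRL3_05342 lay apart, and without reference library b edgeR's adjusted p no longer passed 0.05 for this gene (log2 fold change 0.88, against 1.17 with all libraries). Below the run, NRRL3_05340 and NRRL3_05339 were also called higher, with ratios of 1.61 and 1.75 that missed the limit of 2, so that 5 consecutive genes were higher in delta-hapX. Above it, NRRL3_05344 was lower, with 35.2 and 23.4 CPM in delta-hapX, against 54.2 and 45.4 CPM in the reference.

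**Figure D2:**
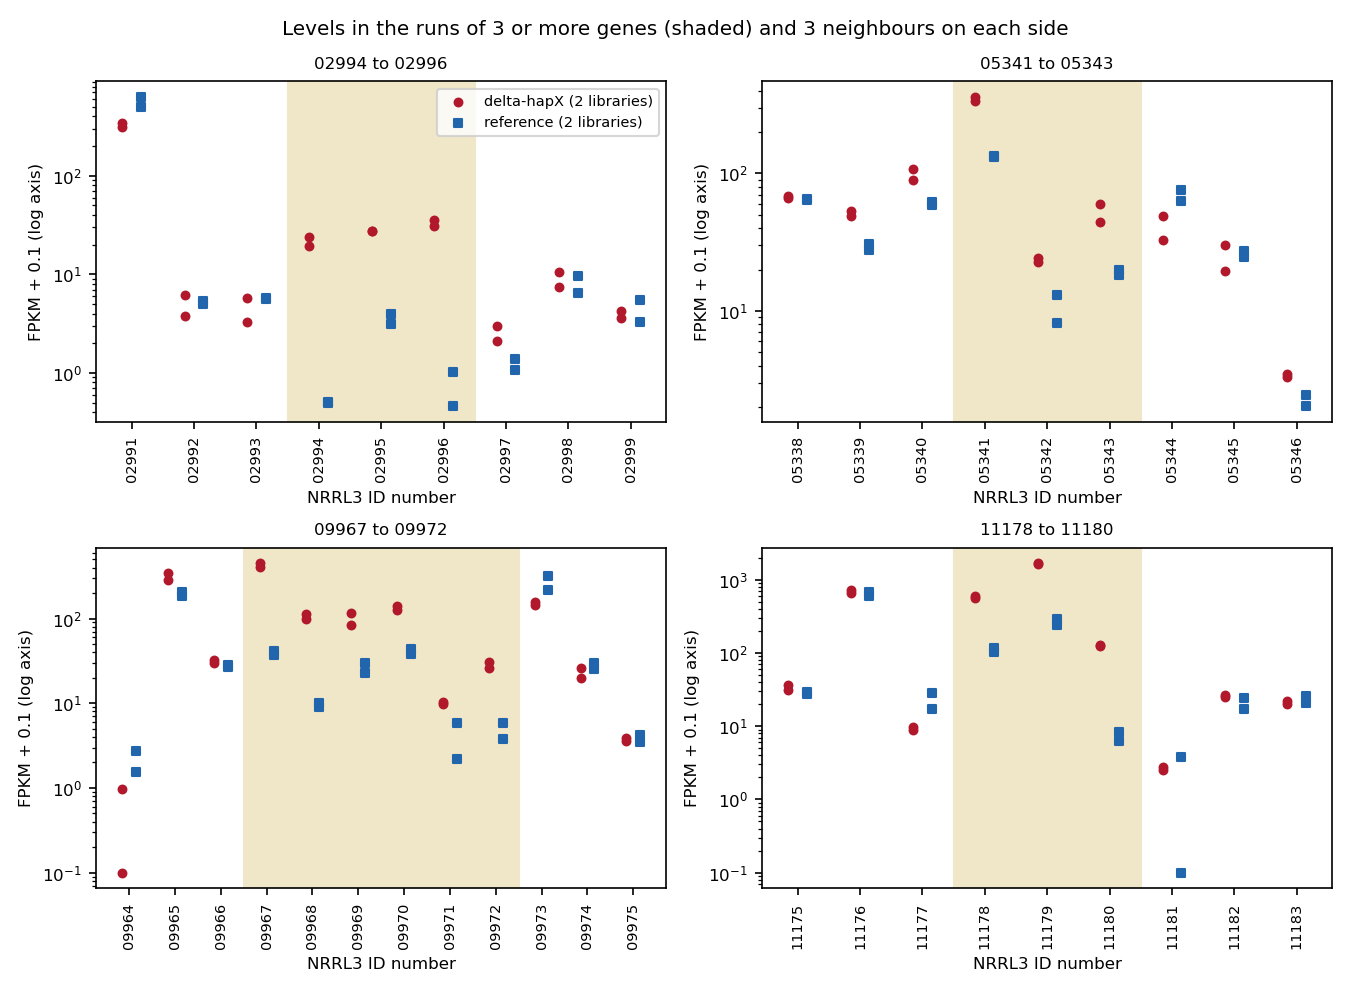
Levels per library, as FPKM + 0.1 on a logarithmic axis, of the 4 runs of 3 or more genes (shaded) and of the 3 numbered genes on each side. Red circles are the 2 delta-hapX libraries and blue squares the 2 reference libraries; within the shading every circle lies above every square, and NRRL3_09973, NRRL3_11177 and NRRL3_05344, next to a run, show the opposite order.

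Among the runs of 2, the largest ratios belonged to pairs in which the genes differed strongly. NRRL3_02061 (612 bases) had 1642 and 1714 CPM in delta-hapX libraries a and b, against 68.0 and 55.5 CPM in reference libraries a and b, a ratio of 27.0, and was among the most abundant members per length at 2824 ± 84.7 FPKM in delta-hapX and 104 ± 14.8 FPKM in the reference (mean ± SD, n = 2 each). Its neighbour NRRL3_02062 (768 bases) had 26.3 and 23.1 CPM in delta-hapX, against 10.8 and 12.8 CPM in the reference, a ratio of 2.05. NRRL3_06675 (1071 bases) had 371 and 372 CPM in delta-hapX, against 14.5 and 13.3 CPM in the reference, a ratio of 25.8, beside NRRL3_06676 (1524 bases) with 94.3 and 94.99 CPM in delta-hapX, against 45.02 and 42.5 CPM in the reference, a ratio of 2.15. In both pairs a gene more than 25 times as high in delta-hapX stood next to one about 2 times as high.

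NRRL3_04261 (1872 bases) had 193 and 208 reads in delta-hapX, against 10 and 4 reads in the reference, a ratio of summed counts of 33.2 (95% counting interval 19.6 to 61.3) and a ratio by the rule of 25.7, with a log2 fold change by edgeR of 5.03, and of 5.78 when reference library a was left out. Its neighbour NRRL3_04262 (2052 bases) had 186 and 138 reads in delta-hapX, against 80 and 84 reads in the reference, a ratio of 2.22. The genes on both sides of this pair, NRRL3_04260 and NRRL3_04263, were called higher too, with ratios of 1.60 and 1.65, which made 4 consecutive genes. NRRL3_04330, the shortest member, had 118 and 97 reads in delta-hapX, against 4 and 5 reads in the reference, a ratio of summed counts of 27.7 (95% counting interval 14.3 to 61.4) and a ratio by the rule of 18.9. Its neighbour NRRL3_04331 (1041 bases) had 166 and 85 reads in delta-hapX, against 45 and 55 reads in the reference, a ratio of 2.76, and its delta-hapX libraries lay further apart, at 33.7 ± 13.4 CPM in delta-hapX and 11.9 ± 1.93 CPM in the reference (mean ± SD, n = 2 each).

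The 2 most abundant members by CPM had ratios under 3, whereas NRRL3_11179, the next, had the ratio of 6.17 given above. NRRL3_08108 (2325 bases) had 33202 and 28355 CPM in delta-hapX libraries a and b, against 13733 and 13702 CPM in reference libraries a and b, a ratio of 2.24. Its neighbour NRRL3_08107 (2385 bases) had 194 and 175 CPM in delta-hapX, against 79.7 and 103 CPM in the reference, and its ratio of 2.02 was the smallest of all members. NRRL3_10939 (1164 bases) had 6794 and 6071 CPM in delta-hapX, against 2472 and 2606 CPM in the reference, a ratio of 2.53, next to NRRL3_10940 (879 bases) with 66.9 and 62.8 CPM in delta-hapX, against 24.9 and 31.9 CPM in the reference, a ratio of 2.26. In each of these pairs the genes had similar ratios at levels far apart, 13038 and 76.1 FPKM in delta-hapX for NRRL3_08108 and NRRL3_08107.

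NRRL3_05783 (909 bases) had 3048 and 3146 CPM in delta-hapX, against 1581 and 1456 CPM in the reference, a ratio of 2.04, and NRRL3_05784 (1473 bases) had 96.1 and 100.1 CPM in delta-hapX, against 46.2 and 46.1 CPM in the reference, a ratio of 2.11. NRRL3_01424 (2256 bases) reached 3154 and 3359 CPM in delta-hapX, against 906 and 919 CPM in the reference, a ratio of 3.57. NRRL3_01425 (1845 bases), numbered next, reached 289 and 342 CPM in delta-hapX, against 111 and 86.9 CPM in the reference, a ratio of 3.18. These pairs again combined a very abundant gene with a less abundant one at a similar ratio.

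Across the 34 runs of 2, the larger ratio was within 1.5 times the smaller one in 22 runs and more than 3 times as large in 6. The median of larger over smaller ratio was 1.31. In the 6 unequal runs the larger ratio was between 15.6 and 27.0 and the smaller one between 2.05 and 4.20. No limit was set on how alike neighbours had to be, but the rule keeps every ratio at 2 or above, which by itself holds pairs of small ratios close together. Levels were less alike than ratios: the higher FPKM in delta-hapX was a median of 2.70 times the lower one, within 2 times in 14 runs and over 10 times in 7. The gene with the higher FPKM in delta-hapX also had the larger ratio in 23 of the 34 runs. The gene with the lower FPKM in the reference had the larger ratio in 19 runs. The delta-hapX level is the numerator of the ratio and the reference level its denominator. Both counts are therefore tied to the ratio itself and are a description only.

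**Figure D3:**
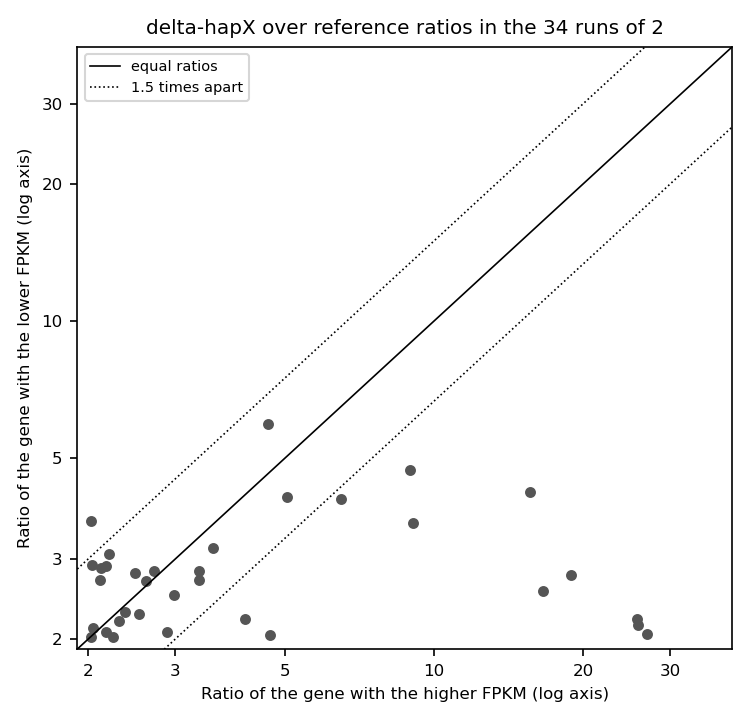
Ratio of delta-hapX over reference in the 34 runs of 2, on logarithmic axes, with the gene of higher delta-hapX FPKM on the horizontal axis and its neighbour on the vertical axis. Each point is 1 run, and 22 points lie between the dotted lines. The 6 points furthest to the right all have their larger ratio in the gene of higher FPKM, a level that is part of the ratio.

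In the 7 runs of 2 with levels over 10 times apart, the smaller gain in mean CPM (delta-hapX minus reference) was 0.546% to 34.3% of the larger. For NRRL3_02062 beside NRRL3_02061 it was 12.9 against 1616 CPM, and for NRRL3_08107 beside NRRL3_08108 it was 93.2 against 17061 CPM. The tables give no coordinates and no source used here states whether the libraries keep strand. The part that reads reaching into a neighbouring or overlapping gene have in these gains was not tested.

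Of the other 26 runs of 2, 5 had ratios of 4 or more in both genes, a grouping chosen after the values were seen. NRRL3_02664 and NRRL3_02665 had ratios of 4.70 and 8.93, with 42.2 and 20.8 CPM in delta-hapX, against 3.75 and 2.41 CPM in the reference for NRRL3_02665. NRRL3_02664 had 33.6 and 16.3 CPM in delta-hapX, against 2.35 and 7.48 CPM in the reference. For NRRL3_02664 the log2 fold change by edgeR was 2.36 with all libraries, 1.74 leaving out reference library a and 3.42 leaving out reference library b, and DESeq2 did not call it. NRRL3_02921 had 39.3 and 41.1 CPM in delta-hapX, against 8.91 and 7.72 CPM in the reference, a ratio of 4.62. NRRL3_02922, the longest member, had 10.7 and 11.1 CPM in delta-hapX, against 1.88 and 0.966 CPM in the reference, a ratio of 5.94. Its reference libraries held 8 and 4 reads, and limma did not call it. For NRRL3_05649 and NRRL3_05650 the ratios were 6.49 and 4.06, and NRRL3_05649 had 72.7 and 59.6 CPM in delta-hapX, against 8.91 and 10.6 CPM in the reference. In all 3 pairs the delta-hapX libraries lay above the reference libraries by the rule. NRRL3_08707 had 73 and 53 reads in delta-hapX, against 11 and 14 reads in the reference, a ratio of 5.05. NRRL3_08708 had 33 and 25 reads in delta-hapX, against 8 and 5 reads in the reference, a ratio of 4.096. Both genes of this pair had few reference reads. NRRL3_08985 and NRRL3_08986 had ratios of 4.20 and 15.6, and NRRL3_08986 had 238 and 197 reads in delta-hapX, against 19 and 9 reads in the reference. For NRRL3_08986 the log2 fold change by edgeR was 4.16 with all libraries, 3.75 leaving out reference library b and 4.75 leaving out reference library a.

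A ratio of 5 or more in only 1 of both genes was seen in 2 further runs. NRRL3_03466 had 113 and 48 reads in delta-hapX, against 5 and 2 reads in the reference, a ratio of 16.6, beside NRRL3_03467 with a ratio of 2.55. For NRRL3_03466 the log2 fold change by edgeR was 4.67 with all libraries, 4.03 leaving out delta-hapX library a and 5.39 leaving out reference library a. NRRL3_08794 had 39 and 23 reads in delta-hapX, against 1 and 3 reads in the reference, a ratio of 9.05, beside NRRL3_08795 with a ratio of 3.60. Limma did not call NRRL3_08795. For NRRL3_08794 the log2 fold change by edgeR was 4.07 with all libraries, 3.48 leaving out reference library a and 5.004 leaving out reference library b, and both reference counts were at or below the detection limit. The 38 genes of the other 19 runs had ratios from 2.02 to 4.65 with a median of 2.55, and mean levels from 4.15 to 179.5 FPKM in delta-hapX and from 0.675 to 61.8 FPKM in the reference. These runs began at the numbers 00728, 00770, 01237, 01402, 01453, 01760, 02448, 02823, 03124, 03151, 03311, 03731, 04238, 04649, 05512, 05844, 06288, 06306 and 06344.

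The more abundant of these 19 runs are given first. NRRL3_00771 (867 bases) had 162 and 146 CPM in delta-hapX, against 52.3 and 53.8 CPM in the reference, a ratio of 2.88. NRRL3_00770 (525 bases) had 34.4 and 35.7 CPM in delta-hapX, against 16.2 and 17.1 CPM in the reference, a ratio of 2.07. Both genes of this pair had replicates close together in each strain. NRRL3_03151 (1989 bases) had 236 and 224 CPM in delta-hapX, against 61.9 and 74.6 CPM in the reference, a ratio of 3.35. NRRL3_03152 (1746 bases) had 34.9 and 31.9 CPM in delta-hapX, against 14.1 and 8.93 CPM in the reference, a ratio of 2.83. The more abundant gene of this pair had the larger ratio. NRRL3_03124 (702 bases) had 70.6 and 44.2 CPM in delta-hapX, against 20.6 and 22.7 CPM in the reference, a ratio of 2.61. NRRL3_03125 (2043 bases) had 149.99 and 104 CPM in delta-hapX, against 50.2 and 43.7 CPM in the reference, a ratio of 2.69. In both of these, delta-hapX library a lay above library b.

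NRRL3_04238 (618 bases) had 69.0 and 59.3 CPM in delta-hapX, against 24.4 and 18.1 CPM in the reference, a ratio of 2.97. NRRL3_04239 (1647 bases) had 7.81 and 7.99 CPM in delta-hapX, against 1.88 and 3.86 CPM in the reference, a ratio of 2.49. These neighbours differed over 10 times in FPKM. For NRRL3_04239 the log2 fold change by edgeR was 1.47 with all libraries, 1.03 leaving out reference library a and 2.08 leaving out reference library b, and it was not called by DESeq2, by limma, or without delta-hapX library b or reference library a. NRRL3_05845 (516 bases) had 42.4 and 36.2 CPM in delta-hapX, against 15.5 and 22.7 CPM in the reference, a ratio of 2.03. NRRL3_05844 (585 bases) had 11.2 and 9.41 CPM in delta-hapX, against 3.52 and 2.90 CPM in the reference, a ratio of 2.91. Here the less abundant gene had the larger ratio. NRRL3_03731 (843 bases) had 47.4 and 42.5 CPM in delta-hapX, against 19.0 and 11.3 CPM in the reference, a ratio of 2.90. NRRL3_03732 (1467 bases) had 121 and 108 CPM in delta-hapX, against 65.4 and 39.6 CPM in the reference, a ratio of 2.17. In the reference both genes of this pair were higher in library a. NRRL3_05513 (2235 bases) had 157 and 183 CPM in delta-hapX, against 86.3 and 60.8 CPM in the reference, a ratio of 2.31. NRRL3_05512 (666 bases) had 13 and 27 reads in delta-hapX, against 10 and 9 reads in the reference, a ratio of 2.19. For NRRL3_05512 the log2 fold change by edgeR was 1.29 with all libraries, 0.58 leaving out delta-hapX library b and 1.79 leaving out delta-hapX library a. In NRRL3_05512 the lower delta-hapX library was only 1.44 times the higher reference library.

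Close ratios at moderate levels were seen in further pairs. NRRL3_01402 (927 bases) had 26.0 and 29.7 CPM in delta-hapX, against 12.2 and 14.2 CPM in the reference, a ratio of 2.07. NRRL3_01403 (1665 bases) had 87.2 and 116 CPM in delta-hapX, against 50.4 and 42.2 CPM in the reference, a ratio of 2.18. Both libraries of delta-hapX lay above the reference in each gene, as the rule requires. Without delta-hapX library b, NRRL3_01402 and NRRL3_01403 were no longer risers, nor was NRRL3_01402 without reference library a. NRRL3_03311 (1317 bases) had 29.9 and 35.1 CPM in delta-hapX, against 14.5 and 12.3 CPM in the reference, a ratio of 2.37. NRRL3_03312 (654 bases) had 43 and 38 reads in delta-hapX, against 17 and 21 reads in the reference, a ratio of 2.29. These genes had nearly equal ratios. NRRL3_02823 (2025 bases) had 34.9 and 46.5 CPM in delta-hapX, against 14.3 and 17.9 CPM in the reference, a ratio of 2.48. NRRL3_02824 (1071 bases) had 24 and 31 reads in delta-hapX, against 11 and 9 reads in the reference, a ratio of 2.80. The scarcer gene had the larger ratio. However, its 95% counting interval, 1.88 to 5.61 for summed counts, spanned that of its neighbour, 2.07 to 3.15. DESeq2 did not call NRRL3_02824. NRRL3_06344 (495 bases) had 28.9 and 24.2 CPM in delta-hapX, against 11.02 and 7.97 CPM in the reference, a ratio of 2.71. NRRL3_06345 (1527 bases) had 44 and 20 reads in delta-hapX, against 16 and 7 reads in the reference, a ratio of 2.82. For NRRL3_06345 the log2 fold change by edgeR was 1.67 with all libraries, 1.09 leaving out delta-hapX library a and 2.33 leaving out reference library a, and it was not called in 5 of the 11 other fits. NRRL3_06345 was about 2 times as high in library a as in b in both strains.

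The next pairs had at most 109 reads in any library. NRRL3_01453 (1458 bases) had 96 and 75 reads in delta-hapX, against 33 and 53 reads in the reference, a ratio of 2.20. NRRL3_01454 (1338 bases) had 79 and 43 reads in delta-hapX, against 21 and 21 reads in the reference, a ratio of 3.08. The reference libraries of NRRL3_01453 lay further apart than those of its neighbour. NRRL3_01760 (2184 bases) had 109 and 82 reads in delta-hapX, against 29 and 33 reads in the reference, a ratio of 3.35. NRRL3_01761 (1104 bases) had 23 and 21 reads in delta-hapX, against 5 and 11 reads in the reference, a ratio of 2.69. For NRRL3_01761 the log2 fold change by edgeR was 1.65 with all libraries, 1.16 leaving out reference library a and 2.35 leaving out reference library b, and it was not called in 5 of the 11 other fits. NRRL3_02448 (1428 bases) had 49 and 31 reads in delta-hapX, against 16 and 13 reads in the reference, a ratio of 2.86. NRRL3_02449 (1623 bases) had 81 and 54 reads in delta-hapX, against 38 and 32 reads in the reference, a ratio of 2.13. Both of these were higher in library a than in b in delta-hapX. NRRL3_00728 (1569 bases) had 27 and 23 reads in delta-hapX, against 5 and 4 reads in the reference, a ratio of 4.65. NRRL3_00729 (1341 bases) had 21 and 20 reads in delta-hapX, against 13 and 8 reads in the reference, a ratio of 2.04. The first of this pair had the largest ratio of the 19 runs. NRRL3_06288 (1614 bases) had 36 and 40 reads in delta-hapX, against 13 and 5 reads in the reference, a ratio of 4.15. NRRL3_06289 (1107 bases) had 19 and 20 reads in delta-hapX, against 10 and 8 reads in the reference, a ratio of 2.21. For NRRL3_06288 the log2 fold change by edgeR was 2.28 with all libraries, 1.78 leaving out reference library b and 3.07 leaving out reference library a, and NRRL3_06289 was not called. NRRL3_06306 had 45 and 45 reads in delta-hapX, against 22 and 27 reads in the reference, a ratio of 2.02, and lay close to the limit of 2. Neither DESeq2 nor limma called NRRL3_06306. NRRL3_01238, beside NRRL3_01237, had 25 and 23 reads in delta-hapX, against 13 and 12 reads in the reference, a ratio of 2.03.

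Near its limits the rule rested on small counts. NRRL3_06307 had 27 and 13 reads in delta-hapX, against 5 and 15 reads in the reference, and its lower delta-hapX library was only 1.02 times its higher reference library in CPM. For NRRL3_06307 the log2 fold change by edgeR was 1.19 with all libraries, 0.57 leaving out reference library a and 2.20 leaving out reference library b. NRRL3_01237 had 30 and 9 reads in delta-hapX, against 5 and 4 reads in the reference, a mean of 5.19 CPM in delta-hapX, just inside the limit of 5. For NRRL3_01237 the log2 fold change by edgeR was 2.28 with all libraries, 1.27 leaving out delta-hapX library a and 2.84 leaving out delta-hapX library b. Neither DESeq2 nor limma called NRRL3_01237. Just outside, NRRL3_00730, NRRL3_02666 and NRRL3_01401 were numbered next to a run and had ratios of 1.93, 1.79 and 1.78. NRRL3_03313 and NRRL3_04332 had ratios of 2.58 and 2.95 but only 2.95 and 2.02 CPM in delta-hapX. In all, 22 members had fewer than 10 reads in a reference library.

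Each library was also left out in turn. Of the 83 members, 57 remained risers whichever library was left out, among them 34 of the 36 with a ratio of 3 or more. The exceptions among these were NRRL3_01237 and NRRL3_08795, which were risers only with delta-hapX library a. Without delta-hapX library a 71 members remained risers, and without delta-hapX library b 77. The number was 73 when reference library a was left out and 76 when reference library b was. In 17 of the 38 runs every gene remained a riser each time.

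A fit over all genes places these values beside the rest of the transcriptome. The edgeR quasi-likelihood test with Benjamini-Hochberg adjustment called 78 of the 83 members higher in delta-hapX, where 12.2% of all 8535 tested genes were called higher. The members were chosen on this same contrast, so their share is not a result. The 5 others, NRRL3_00729, NRRL3_01238, NRRL3_05512, NRRL3_06289 and NRRL3_06307, had ratios of 2.03 to 2.21. Both delta-hapX libraries lay above both reference libraries in 28.1% of all genes with reads, and in all members by the rule. The median log2 fold change was 1.61 over the members and 0.0011 over all tested genes.

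Risers that stood in runs can be set beside the 251 risers outside runs, since all met the same limits. The median ratio was 2.83 in runs and 2.47 outside them. A ratio of 10 or more was reached by 11 of 83 members (13.3%) and by 7 of 251 risers outside runs (2.79%). Members made up 11 of the 18 risers of this size and 24.9% of all risers. The 11 are not separate units, since NRRL3_02994 and NRRL3_02996 share a run, as do NRRL3_09967 and NRRL3_09968. The ratio was also part of the rule. The median level was 35.0 CPM in delta-hapX and 10.3 CPM in the reference for members, and 17.7 CPM in delta-hapX and 6.79 CPM in the reference for the others. The median coding length was 1239 bases in runs and 1440 bases outside. These differences were not tested, since genes are not replicates of the strains.

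**Figure D4:**
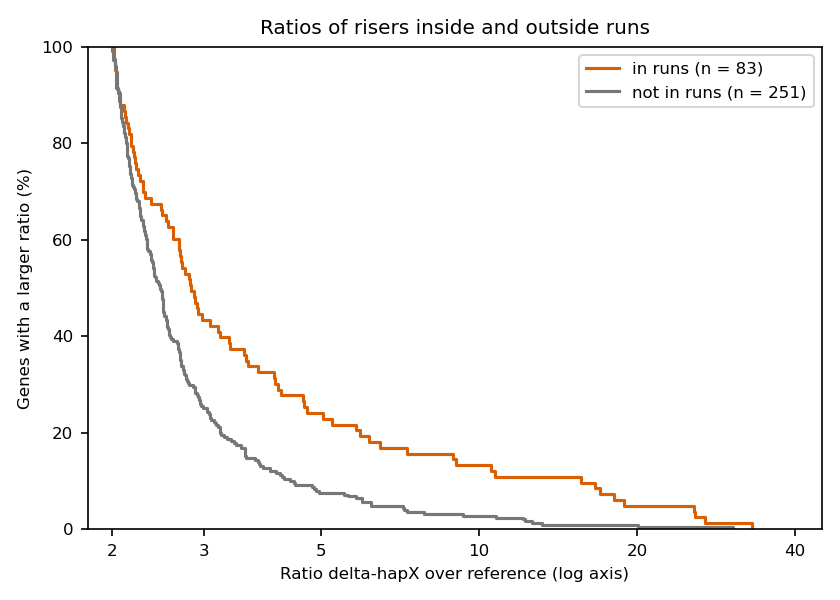
Share of genes, in percent, with a ratio larger than the value on the logarithmic horizontal axis, for the 83 risers in runs (orange) and the 251 risers outside runs (grey). The orange line lies above the grey one over most of the range; at a ratio of 10 it stands at 13.3%, against 2.79%.

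The numbers just before and after the 38 runs are 76 positions, of which 72 had reads and 53 were tested. Of the tested genes, 11 were called higher in delta-hapX (20.8%, where 12.2% of all tested genes were) and 7 lower (13.2%, where 14.4% were). By the rule none of these genes is a riser, so the count of higher genes leaves out the strongest. By DESeq2's Wald test 5 of them were called higher, but that test also called fewer genes higher in all, 572 against 1044 by edgeR. Called higher genes adjoined 10 runs and stood on both sides of 1 run, the pair NRRL3_04261 and NRRL3_04262. Runs lengthened by called neighbours included NRRL3_03464 to NRRL3_03467 and NRRL3_05339 to NRRL3_05343, in which every gene was called higher, and NRRL3_01237 to NRRL3_01241, in which NRRL3_01238 was not. Other runs ended at genes called lower. NRRL3_04651, next to NRRL3_04650, had 43 and 28 reads in delta-hapX, against 184 and 126 reads in the reference, a ratio of 0.271.

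Some runs lay near each other in the numbering. In 7 cases the next run began within 50 numbers of the end of the one before. Runs beginning at NRRL3_01402, NRRL3_01424 and NRRL3_01453 formed one such group, and those beginning at NRRL3_06288, NRRL3_06306 and NRRL3_06344 another. How many runs would lie this close under even scatter was not worked out, so no clustering is claimed.

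Differences between replicates of a strain were not set by the rule directly, but the rule used each library, so they are not independent of it and are given as a description. Between delta-hapX libraries, the difference b minus a in log2(CPM + 0.5) had the same sign in both genes of 30 of the 45 neighbouring pairs in runs (66.7%). Between reference libraries the sign was shared in 24 of the 45 pairs (53.3%). Over all 5970 pairs of consecutive numbers with at least 5 CPM in delta-hapX in both genes, the shares were 51.6% in delta-hapX and 52.1% in the reference. Across the 45 pairs the differences had a Pearson correlation of 0.50 in delta-hapX and -0.043 in the reference. Across all 5970 pairs it was 0.045 in delta-hapX and 0.047 in the reference. All pairs share the same libraries, and some share a gene. Between both genes of a pair, the differences lay a median of 0.21 apart in delta-hapX and 0.51 apart in the reference within runs. Over all 5970 pairs the median gap was 0.25 in delta-hapX and 0.26 in the reference. Members passed the limit of 5 CPM through delta-hapX, where they are high, and 22 had fewer than 10 reads in a reference library, so the correlations of both strains are not compared. In the reference, every gene was more than 1.4 times as high in library a as in b in 1 run, and the reverse held in 1 run. In 5 runs every gene was more than 1.4 times as high in delta-hapX library a as in b, and in 0 runs the reverse held.

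These 5 runs began at NRRL3_02664, NRRL3_03124, NRRL3_03466, NRRL3_04649 and NRRL3_08794. NRRL3_02664 had 129 and 57 reads in delta-hapX, against 10 and 31 reads in the reference. NRRL3_02665 had 162 and 73 reads in delta-hapX, against 16 and 10 reads in the reference. NRRL3_04649 had 126 and 74 reads in delta-hapX, against 47 and 58 reads in the reference, and NRRL3_04650 had 272 and 120 reads in delta-hapX, against 82 and 79 reads in the reference. In these genes both delta-hapX libraries still lay above both reference libraries by the rule. For NRRL3_04650 the log2 fold change by edgeR was 1.48 with all libraries, 0.87 leaving out delta-hapX library a and 1.89 leaving out delta-hapX library b. For NRRL3_02665 the log2 fold change by edgeR was 3.36 with all libraries, 2.78 leaving out delta-hapX library a and 3.76 leaving out delta-hapX library b. In NRRL3_02664 the fold moved most with the reference libraries. Among all members, 51 (61.4%) were higher in delta-hapX library a than in b. The share was 49.8% of the 251 risers outside runs and 53.4% of all 7619 genes with at least 5 CPM in delta-hapX.

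**Figure D5:**
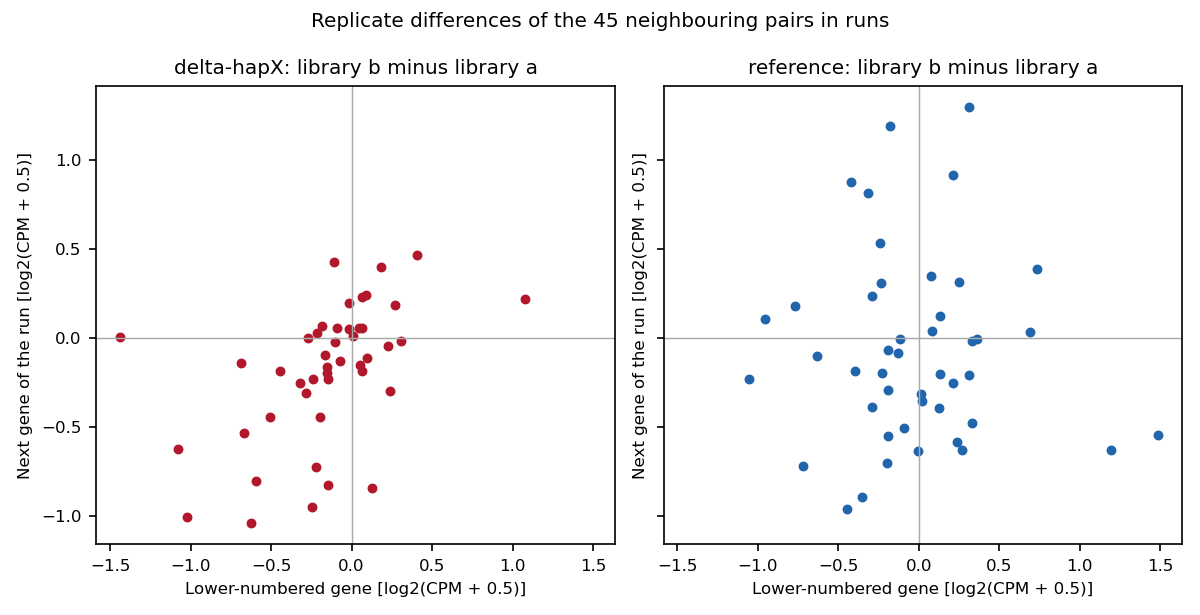
Difference between replicate libraries (b minus a, in log2(CPM + 0.5)) of each gene and of the next gene of its run, for the 45 neighbouring pairs, in delta-hapX (left) and in the reference (right). Points at the lower left and the upper right of both zero lines share their sign, which holds for 30 pairs in delta-hapX and 24 in the reference.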

How the data were processed

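RNA of 4 libraries of A. niger mycelium, 2 per strain, was sequenced as single-end reads after purification of mRNA. Reads were mapped to the NRRL3 genome, per the labels' design text, and Bowtie2 and HISAT are named in the submitters' processing notes. For the quantifying tool, annotation release, strandedness and filters: not given in the sources used here. Each table deposited by the authors gives a coding length (a multiple of 3 in 100.0% of genes), an expected count (estimated reads, not normalized) and, computed by the authors, an FPKM value. Genes missing from a table were set to 0. CPM is the expected count scaled to 1000000 per library. The members and all lists and groupings were chosen with earlier results of these data known.

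The fit across all genes used edgeR 4.0.16 (R 4.3.3) on counts rounded to whole numbers, with a quasi-likelihood F test, strain as the only term, TMM, filterByExpr and Benjamini-Hochberg adjustment at 0.05. It gives the background and, for members, a description. On simulated data for 8535 genes, 3 draws with 100 genes per fold size, edgeR recovered 69 to 85 of 100 2-fold and 99 to 100 of 100 4-fold changes, with 1 to 20 false calls. Summed counts were divided by TMM library sizes, with exact (Clopper-Pearson) 95% intervals that cover counting error only. Alternatives were DESeq2 1.42.0 (Wald test, size factors), limma 3.58.1 on log2(FPKM + 1) or log2(FPKM + 0.1) with FPKM of at least 1 in at least 2 libraries, other filters and limits of the rule, the replicate letter as a block, and leaving out each library.

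Genes named in full were all members of runs of 3 or more, the runs of 2 holding one of the 5 largest ratios, the 5 highest CPM or the 3 highest FPKM in delta-hapX, and genes next to runs or nearest to the limits. The other runs were described by groups chosen after their values were seen.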

Additional observations from a re-analysis of the deposited data

How the results depend on the processing

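The number of members depended mostly on the limits of the rule. The 334 risers, 83 members, 38 runs and 4 runs of 3 or more became 541, 155, 72 and 8 with a minimum of 1 CPM, and 886, 248, 109 and 21 with a ratio of at least 1.5. A ratio of at least 3 left 99 risers, 24 members and 10 runs, and a pseudocount of 2 left 55 members in 25 runs. Allowing 1 non-riser within a run gave 7 runs of 3 or more. Other scalings of the libraries (TMM, DESeq2 size factors and, added after the data were seen, totals without NRRL3_08108) gave 85 to 90 members and kept all 83. FPKM in place of CPM gave 81 members, of which 69 were among the 83. Leaving out 1 library gave 71 to 90 members, of which 61 to 73 were among the 83. EdgeR's 1044 higher and 1225 lower genes became 572 and 814 by DESeq2, and the higher genes 635 by limma on log2(FPKM + 0.1) and 680 on log2(FPKM + 1). DESeq2 called 5 of the genes next to runs higher, against 11. The median log2 fold change of members, 1.61, was 1.38 by limma on log2(FPKM + 1). The causes of these differences were not tested. Leaving out 1 library gave 701 to 885 higher genes; a single library left in a strain was taken to be as variable as the pair of the other. A replicate block (letter a or b) gave 1222 genes called higher and 1406 lower. Pairing by letter was not assumed, since no label says so and deviations of same-lettered libraries correlated at only 0.0193 across genes. Fits other than the main one numbered 11. Of the 83 members edgeR called 78 higher, DESeq2 69 and limma 70 and 71 (log2(FPKM + 0.1) and log2(FPKM + 1)). Over all genes the same fits called 1044, 572, 635 and 680 higher. DESeq2 gave an adjusted p to 80 of the 83 members, and those without one count as not called. The direction was fixed by the choice of members on this same contrast, so the counts of members are not a result.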
